A study of Homo sapiens with 9 samples.

Results

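The 10 genes described here are monocyte genes, that is, genes whose RNA is abundant in circulating monocytes or in the macrophages that arise from them: MNDA, LYZ, VCAN, CST3, CD14, FCN1, MS4A7, CD163, CD68 and CSF1R. They were taken as a named list, matched by symbol to the Ensembl identifiers of the deposited table, and are 10 of the 57338 genes in it. The list was selected on measured values, namely high RPKM of these genes in the libraries labelled hPRM1 beside the empty vector libraries, so the difference between those 2 groups is given as a description and carries no test.

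By the labels and the study's methods the RNA came from HEK293T, a line derived from human embryonic kidney and not from blood, transfected with pcDNA3.1 plasmids for EGFP alone (the empty vector), for EGFP joined to human protamine 1 (hPRM1) or for EGFP joined to human protamine 2 (hPRM2). Live cells with high EGFP were sorted 3 days later, and 3′-end mRNA libraries were made, 3 per group and 9 in all. The labels number the replicates but do not say that they were separate cultures, so every p-value measures the spread between these libraries, which may be technical. Levels are RPKM, reads per kilobase of gene scaled to the total reads of the library. With 3′-end reads the division by length lowers long genes. Orders of different genes below are therefore orders of RPKM and not of transcript number.

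The labels and the RNA were compared first. PRM2 stood at 71224, 60050 and 36130 RPKM in the 3 hPRM2 libraries and was listed at 0 in the other 6, whereas PRM1 was listed at 0 in all 9 libraries, those labelled hPRM1 included. Of 8 markers of HEK293T cells, 6 were at 0 in every library labelled hPRM1 (LIN28B, IGF2BP1, HMGA2, HOXC10, NEFL and NEFM), and the summed level of the 8 was 0.43 to 1.26 RPKM there, against 184 to 249.5 in the empty vector libraries and 88.5 to 166 in the hPRM2 libraries. The libraries labelled hPRM1 also have library numbers from another series than the other 6, so the library series and the condition cannot be told apart. They are called "the libraries labelled hPRM1" throughout for these reasons. Estimated reads on genes ran from 7930000 to 10790000 in the empty vector libraries, 4210000 to 5860000 in those labelled hPRM1 and 1270000 to 2650000 in the hPRM2 libraries.

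Monocytes are white blood cells made in the bone marrow from the same progenitors as neutrophils, and they become macrophages and some dendritic cells in tissue. They sense bacterial endotoxin through CD14 and TLR4, depend for survival on signalling through the receptor CSF1R, and secrete lysozyme and ficolin as part of innate defence. Several of the genes are not exclusive to monocytes: CST3 is made by nearly every cell type, VCAN by many cells that lay down matrix, LYZ also by neutrophils and MNDA also by neutrophils and some B cells. In bulk RNA such as this, fewer cells of a type and less RNA per cell cannot be told apart.

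All 10 genes were above 0 in each of the 3 libraries labelled hPRM1. In the empty vector libraries 2, 4 and 2 of the 10 were above 0, and in the hPRM2 libraries 3, 4 and 4. The summed level of the 10 genes was 1250.1 to 1909.6 RPKM in the libraries labelled hPRM1, 135 to 179 RPKM in the empty vector libraries and 103 to 185 RPKM in the hPRM2 libraries, and outside the libraries labelled hPRM1 most of it was CST3 and VCAN. For 9 of the 10 genes (all except CST3) every library labelled hPRM1 was above every empty vector library, a pattern that 14.5% of the 13588 genes tested had. The same 9 were above every hPRM2 library. The share of all genes with that second pattern was not counted, so nothing is read from it.

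MNDA and LYZ, which neutrophils also make, led the list in RPKM. MNDA, the myeloid cell nuclear differentiation antigen, an interferon-inducible nuclear protein of the PYHIN family (chr1:158831317-158849506, plus strand, GRCh38), had 495, 629 and 419.9 RPKM in the libraries labelled hPRM1 (514 ± 106, mean ± SD, n = 3) and was listed at 0 in the other 6. LYZ, which encodes lysozyme, the enzyme that cuts the bacterial cell wall (chr12:69348341-69354234, plus strand), had 385, 622 and 321 RPKM (442 ± 159, n = 3) and was likewise listed at 0 in the other 6. The ranges of MNDA and LYZ overlapped, so their order is not settled by these libraries, while the lowest LYZ value lay above the highest value of every gene below it. Together the pair made up 59.2% to 65.5% of the summed RPKM of the 10 genes, a share that depends on the division by length. LYZ shares 599 exon bases with an antisense gene, AC020656.1, and the sources used here do not say whether counting used strand.

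FCN1, which encodes ficolin-1, a secreted lectin that binds sugars on microbes (chr9:134905890-134917963, minus strand), had 103, 106 and 98.0 RPKM in the libraries labelled hPRM1 (102 ± 4.06, n = 3). It was listed at 0 in the 3 empty vector libraries and at 0, 2.29 and 2.87 RPKM in the hPRM2 libraries, where the 2 values above 0 rest on at most about 12 and 19 reads. FCN1 was the most even of the 10 genes across the libraries labelled hPRM1, with a coefficient of variation of 3.97%, and LYZ the least even, with 35.9%.

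The surface receptors spanned a wide range of levels. CD14, the endotoxin co-receptor that marks classical monocytes (chr5:140631728-140633701, minus strand), had 117, 143 and 99.6 RPKM in the libraries labelled hPRM1 (119.8 ± 21.6 as a mean ± SD, n = 3). In the empty vector libraries it had 0, 0.753 and 0 RPKM. One hPRM2 library, replicate 1, stood apart with 17.8 RPKM, at most about 77.2 reads, while the other two hPRM2 libraries were at 0. LYZ, FCN1 and MNDA were all at 0 in that same library.

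CD163, the scavenger receptor that takes up haemoglobin bound to haptoglobin (chr12:7470813-7503893, minus strand), had 12.8, 13.9 and 13.2 RPKM in the libraries labelled hPRM1 and was listed at 0 in the other 6. CSF1R, the receptor tyrosine kinase for the growth factors CSF1 and IL34 (chr5:150053291-150113372, minus strand), was the lowest of the 10 in RPKM, with 7.57, 5.44 and 6.59 in the libraries labelled hPRM1 and 0 in the other 6. A value of 0 in the shallow hPRM2 libraries allowed 3 reads, or up to 0.303, 0.632 and 0.498 RPKM of CSF1R if its longest coding transcript is taken as its length, all below the level in the libraries labelled hPRM1. MS4A7, a four-pass membrane protein of macrophages and monocytes (chr11:60378482-60395951, plus strand), had 13.95, 17.6 and 12.8 RPKM in the libraries labelled hPRM1, 0 in the empty vector libraries and 0.899 RPKM in a single hPRM2 library, about 2.99 reads at most.

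CD68, a glycoprotein of macrophage lysosomes (chr17:7579467-7582113, plus strand), had 13.4, 11.0 and 11.1 RPKM in the libraries labelled hPRM1. It had 0, 0.79 and 0 RPKM in the empty vector libraries and 0, 0 and 1.52 in the hPRM2 libraries. The libraries labelled hPRM1 lay above the other 6, which overlapped, but CD68 shares 1789 exon bases on the same strand with AC016876.2, so its reads could have been split or counted for either gene.

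VCAN and CST3 differed from the other 8 in being clearly present in the empty vector libraries. VCAN, which encodes versican, a large proteoglycan of the extracellular matrix that monocytes also secrete (chr5:83471465-83582303, plus strand), had 40.7, 38.0 and 39.8 RPKM in the empty vector libraries and 174, 182 and 129.6 in the libraries labelled hPRM1. The difference on the log2(RPKM + 1) scale was 1.99 with an SE of 0.19, and the ranges were well apart. CST3, which encodes cystatin C, a secreted inhibitor of cysteine proteases (chr20:23626706-23638473, minus strand), had 111, 95.2 and 139.7 RPKM in the empty vector libraries and 156, 181 and 138 in the libraries labelled hPRM1. Its difference was 0.47 on the same log2 scale with an SE of 0.21, and the lowest library labelled hPRM1 lay below the highest empty vector library.

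In order of mean RPKM within the libraries labelled hPRM1, 3 tiers were separated by gaps that no library crossed. MNDA and LYZ formed the highest tier, VCAN, CST3, CD14 and FCN1 the next, at 162, 159, 119.8 and 102 RPKM (with neighbours overlapping all along it), and MS4A7, CD163 and CD68 the third, at 14.8, 13.3 and 11.8 RPKM. CSF1R, at 6.53 ± 1.06 RPKM (SD, n = 3), lay below the range of each of the other 9. This order holds for RPKM only, because dividing 3′-end reads by length lowers long genes. By estimated reads, VCAN had at most about 12600, 9470 and 8390, and MNDA 4360, 3980 and 3300. CSF1R likewise had at most about 166, 85.7 and 129 reads, and CD68 128, 75.3 and 94.4. Replicate 2 was the highest of the 3 libraries for 8 of the 10 genes and replicate 3 the lowest for 7. CSF1R and CD68 went the other way, with their highest value in replicate 1 and their lowest in replicate 2. MNDA nevertheless made up 32.9% to 33.6% of the summed level in each library.

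With limma on log2(RPKM + 1), 9 of the 10 genes were called higher against empty vector in the libraries labelled hPRM1 (adjusted p of at most 0.05 and at least 2-fold), beside 12.9% of all 13588 genes tested. All 10 passed the filter of 1 RPKM in 3 of the 6 libraries, and 8 of them could pass only through the libraries labelled hPRM1, so nothing is read from the count. CST3 was the gene not called. The median difference over all genes tested was −1.72 on the log2 scale and 62.5% of them were called lower, so CST3 at 0.47 lay above the bulk of the table.

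That shift depends on scaling. After rescaling by the median of ratios the median of all genes was 0.06, the difference of CST3 was 2.63 and that of VCAN 4.13. After quantile normalization these 3 values were −0.24, 2.29 and 3.797. CST3 was called higher under both, and the number of the 10 genes called was then 10.

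**Figure D1:**
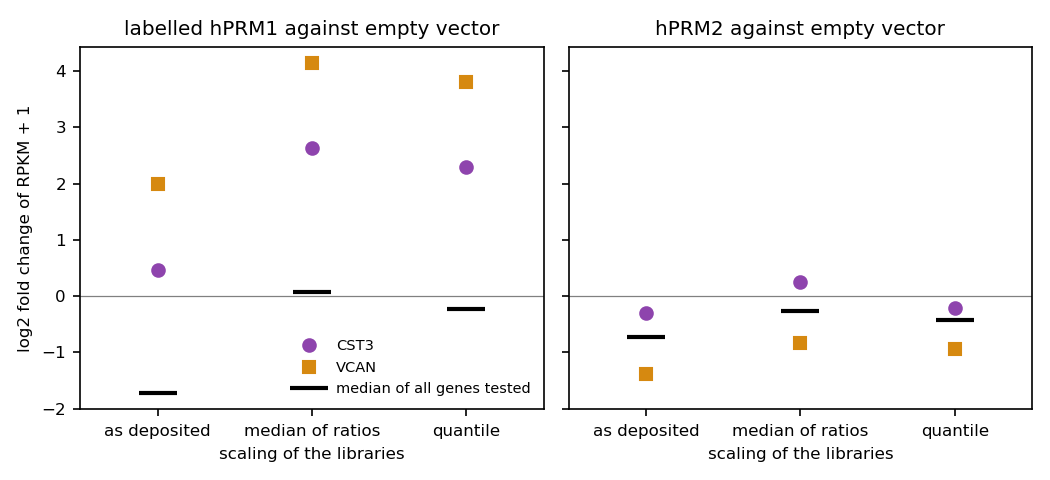
Log2 difference of RPKM + 1 from the empty vector for CST3 (circles), VCAN (squares) and the median of all genes tested (bars) with the libraries as deposited, rescaled by the median of ratios, or quantile normalized. In the left panel both genes lie above the median of all genes under each scaling, and in the right panel CST3 changes sign with the scaling while VCAN stays below 0.

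The hPRM2 libraries, which were not used to choose the list, held little RNA of these genes. LYZ, MNDA, CD163 and CSF1R were listed at 0 in all 3, and only VCAN and CST3 passed the filter. VCAN had 4.75, 13.7 and 43.6 RPKM there against 38.0 to 40.7 in the empty vector libraries. Replicates 1 and 2 were below every empty vector library and replicate 3 above them all, so the 2 groups overlapped. The log2 difference was −1.38 (SE 0.74, 95% interval −3.14 to 0.38, adjusted p = 0.282 with limma, lower in 2 of 3 libraries).

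CST3 had 162, 85.7 and 55.5 RPKM in the hPRM2 libraries, from above to below the empty vector range. Its log2 difference was −0.31 (SE 0.45, 95% interval −1.38 to 0.76, adjusted p = 0.678 with limma). Neither gene was called, beside 359 of 13126 genes (2.74%) called in either direction, and neither had an unadjusted p under 0.05 or was called by the per-gene test of the study's methods. Both intervals include a fall of more than 2-fold, so these libraries do not exclude one.

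Promoter sequence was read from RefSeq (GRCh38.p14), which had an entry for 9 of the 10 genes, LYZ not among them. Starts here are those of RefSeq. They can lie inside the gene positions given above, which came from GENCODE 29, as for CD14, FCN1 and CD68. GAGGAA, the core of the sites bound by PU.1, a transcription factor of the myeloid lineage encoded by SPI1, was searched on both strands in the 250 bases before each start. It was found once in each of 6 of the 9 promoters and in 23.6% of all 35116 promoters of that length. The 30 bases around each match are shown because these 6 genes have the letters in common, on the strand of the gene, with the core in capitals as GAGGAA or as its reverse complement TTCCTC.
CD14 (chr5:140633254-140633283, minus strand, core 96 bases before the start): ggggctggctcgGAGGAAgagaggtgggga
FCN1 (chr9:134917913-134917942, minus strand, 12 bases before the start): cacaaggcgagagctggtTTCCTCtgccct
CD163 (chr12:7503942-7503971, minus strand, 182 bases before the start): atgagttagtatTTCCTCtaatttttcgaa
MNDA (chr1:158831226-158831255, plus strand, 113 bases before the start): acttactacaaaGAGGAActgaccactttc
CD68 (chr17:7579578-7579607, plus strand, 48 bases before the start): tgagactttcatTTCCTCctttccaagaga
MS4A7 (chr11:60378423-60378452, plus strand, 97 bases before the start): agaatttagaaaGAGGAAgcagaggcactt

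VCAN, CSF1R and CST3 had no GAGGAA in this window. They were the 3 of 9 with a GC box, GGGCGG on either strand, which 42.6% of all promoters held, and which is shown here in capitals as GGGCGG or CCGCCC.
VCAN (chr5:83471562-83471591, plus strand, 170 bases before the start): ggagctgcctttCCGCCCctccgcctgctt
CSF1R (chr5:150113456-150113485, minus strand, 108 bases before the start): ctcccctccactCCGCCCacaggcccggat
CST3 (chr20:23637991-23638020, minus strand, 53 bases before the start): cgcggtggggtgGGGCGGcgaaggccggaa
TTGCNNAA, a motif of C/EBP factors, was in 3 of the 9 (CD163, MNDA and CD68) and in 9.05% of all promoters. TATAAA was in 2 (MNDA and MS4A7) and in 10.7% of all. Each motif was counted separately, so matches may overlap. The promoters held a median of 2 CpG dinucleotides, from 1 in CD68 and MS4A7 to 12 in VCAN and 16 in CST3, against a median of 11 over all promoters. The 2 genes richest in CpG were also the 2 with clear expression in the empty vector libraries. With 9 promoters of a list chosen on expression, a link between the 2 traits was not tested. A match is a string of letters and not a measured binding site.

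The relatives and partners of the 10 genes were then described from 11 lists with 123 genes. In the libraries labelled hPRM1, 83 of the 123 passed the filter, of which 44 were called higher and 14 lower, beside 12.9% and 62.5% of all genes tested. The median log2 difference of the 83 was 1.65, against −1.72 over all genes tested. These lists too were drawn up with earlier results of these data known, so their counts are descriptions. Many of the genes passed the filter only through the group in which they were high. No p-value is given for genes of these lists in the libraries labelled hPRM1. After the median of ratios the counts were 67 higher and 7 lower, and over all genes the share of calls that were higher went from 17.1% to 53.1%. Of all genes tested, 31.5% were then called higher and 27.8% lower. Quantile normalization gave 27.3% and 33.1%. The counts under the other 2 scalings below stand beside these shares.

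Other monocyte genes were mostly higher: 24 of the 30 tested, of 31 listed, with none lower, beside 12.9% and 62.5% of all genes. FCER1G, the signalling chain of Fc receptors, had 296, 420.2 and 315 RPKM in the libraries labelled hPRM1. CTSS, the protease cathepsin S, had 64.5, 61.4 and 58.9 RPKM. Both were at 0 in the empty vector libraries. SPI1, named here only because its product is PU.1, had 37.4, 49.1 and 58.8 RPKM in the libraries labelled hPRM1 and 0 in the other 6. KLF4, a transcription factor of monocyte development, was among the 6 tested but not called, with a log2 difference of −0.34 that became 1.07 after the median of ratios.

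Of the genes that act with CD14 in endotoxin sensing, 5 of 9 tested were called higher and 0 lower, beside 12.9% and 62.5% of all genes. Under each of the other 2 scalings 7 were called higher and 0 lower. TLR4, the receptor itself, had 2.85, 4.55 and 2.61 RPKM in the libraries labelled hPRM1, and LY96, the protein that holds endotoxin on TLR4, 3.34, 3.33 and 2.68. TLR2, which senses bacterial lipoproteins with CD14, had 7.08, 11.4 and 9.22 RPKM. These 3 receptors were at 0 in all empty vector and hPRM2 libraries and lay well below CD14 in RPKM. MYD88, the adaptor downstream of both receptors, had 0 to 1.55 RPKM in the empty vector libraries and 18.2 to 20.6 RPKM in those labelled hPRM1 (log2 difference 3.62, SE 0.36). LBP, the plasma protein that delivers endotoxin to CD14, was at 0 in every library labelled hPRM1.

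The ligands of CSF1R were scarce. CSF1 had 0.388, 0.18 and 0.387 RPKM in the libraries labelled hPRM1 against 0.983 to 2.77 in the empty vector libraries, and IL34 had 0.503, 0.35 and 0, so neither passed the filter. Downstream of the receptor, INPP5D, an inositol phosphatase of blood cells, had at most 0.822 RPKM in the empty vector libraries and 92.5, 86.7 and 65.9 RPKM in those labelled hPRM1 (log2 difference 5.82, SE 0.30). PLCG2, a phospholipase of myeloid and B cells, was also called higher (log2 difference 2.22, SE 0.41). GRB2, the adaptor that all cells use, had 449 to 562 RPKM against 477 to 596 in the empty vector libraries, with overlap. Its log2 difference of −0.06 became 2.12 with median of ratios scaling and 1.92 with quantile scaling, and it was called higher under both.

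Among genes of haemoglobin clearance around CD163, 3 of 10 tested were called higher and 2 lower with the libraries as deposited, beside 12.9% and 62.5% of all genes. Median of ratios scaling gave 8 and 0, and quantile scaling 6 and 1. HP, which encodes haptoglobin, the ligand of CD163, had 9.02, 9.37 and 3.08 RPKM in the libraries labelled hPRM1 and at most 0.329 in the empty vector libraries, although its reads may be shared with a near-identical copy. FTL, the ferritin light chain, rose from between 478 and 657 RPKM to between 1522 and 1807 RPKM (log2 difference 1.65, SE 0.17), with the same doubt over copies. BLVRA, a biliverdin reductase, fell by 2.73 on the log2 scale (SE 0.23). Its difference was −0.73 with no call after the median of ratios, and −1.10 with a call of lower after quantile normalization. HMOX2 was called lower with a log2 difference of −1.38 and had 0.74 after the median of ratios, so its direction depends on scaling.

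Around versican, 1 of 6 tested was called higher and 4 lower, of 14 listed, and these counts were the same under the other 2 scalings. With the libraries as deposited the share called lower is near the 62.5% of all genes. Under the median of ratios and quantile scalings 27.8% and 33.1% of all genes were called lower, so that nearness depends on scaling. With 6 genes tested, nothing particular to the list is read from these shares. CD44, the hyaluronan receptor of leukocytes, rose from between 4.16 and 14.9 RPKM to between 71.5 and 87.5 RPKM (log2 difference 2.91, SE 0.45). ADAMTS1, a protease that cuts versican, had 32.1 to 40.3 RPKM in the empty vector libraries and at most 0.144 in those labelled hPRM1. FBLN1, a matrix protein that binds versican, had 37.2 to 46.7 RPKM in the empty vector libraries, 10.5 to 20.4 in the hPRM2 libraries and was listed at 0 in those labelled hPRM1. ACAN, the proteoglycan aggrecan, had 5.06 to 6.83 RPKM in the empty vector libraries and at most 0.0873 in those labelled hPRM1. These 3 genes and ADAMTS9 were called lower under the other 2 scalings as well.

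The relatives of MNDA and MS4A7 lie beside them in the genome and were silent in the empty vector libraries. All 3 other PYHIN genes on chromosome 1 were called higher, beside 12.9% of all genes tested. They could pass the filter only through the libraries labelled hPRM1, so nothing is read from the count. IFI16, a nuclear DNA sensor, had 36.8, 64.6 and 31.6 RPKM in the libraries labelled hPRM1. PYHIN1 had 5.70, 10.8 and 9.46 RPKM there, and AIM2, an inflammasome sensor of cytosolic DNA, 2.13, 1.67 and 1.20 RPKM. None of the 3 approached MNDA. Of 13 MS4A genes on chromosome 11, 7 were above 0 in some library labelled hPRM1 and 6 were at 0 in all of them. MS4A6A, which macrophages and monocytes express, reached 66.6, 65.3 and 42.9 RPKM, above MS4A7 itself, and MS4A1, which encodes the B cell antigen CD20, 14.8, 19.0 and 15.2 RPKM. MS4A14, whose exons share 135 bases with MS4A7, stayed between 0.486 and 2.97 RPKM, below the filter.

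**Figure D2:**
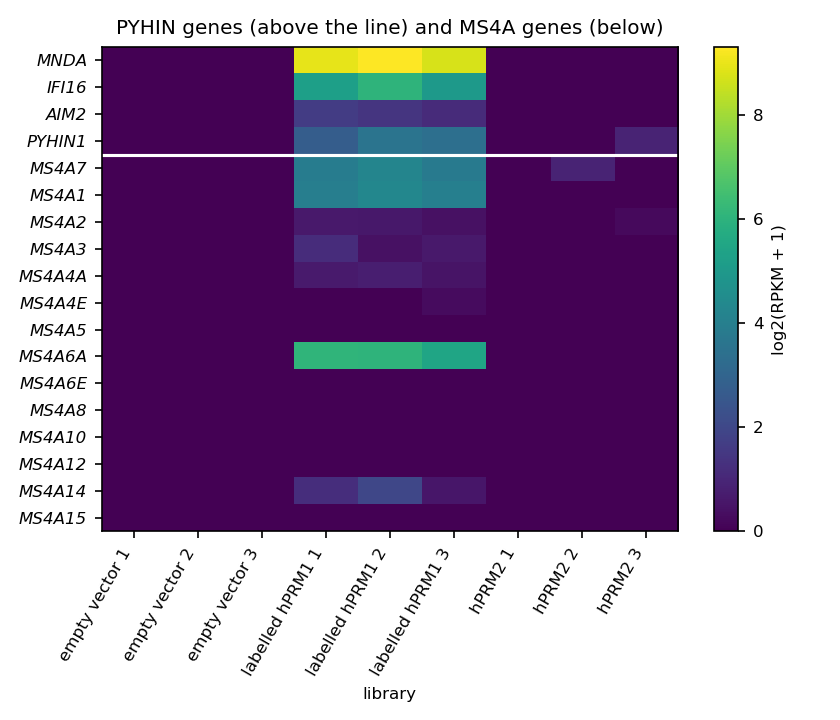
Log2(RPKM + 1), as colour, of MNDA and the other PYHIN genes (above the line) and of MS4A7 and the other MS4A genes (below) in each of the 9 libraries. The empty vector columns are at 0 throughout, and MNDA, MS4A6A and IFI16 are the brightest rows in the libraries labelled hPRM1.

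The relatives of FCN1 and LYZ contrasted with those of MNDA. FCN2, FCN3 and MBL2, the other ficolins and the mannose-binding lectin made mainly in liver and lung, were at 0 in all 9 libraries. None of the 7 genes in that list passed the filter in the libraries labelled hPRM1 against empty vector. MASP2 passed it in the hPRM2 comparison and was not called. In the lysozyme family LYZL4, SPACA3 and LALBA were likewise at 0 in all 9. LYG1 was the single gene past the filter, through the empty vector libraries, with 2.51 to 8.06 RPKM there and 0.691, 0 and 0 RPKM in those labelled hPRM1.

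Among relatives of CST3 and the proteases that cystatins inhibit, 3 of 9 tested were called higher and 4 lower, beside 12.9% and 62.5% of all genes. Under each of the other 2 scalings 5 were called higher and 2 lower. CST7, a cystatin of NK, T and myeloid cells, had 53.2, 87.3 and 56.3 RPKM and CSTA, cystatin A, 13.3, 4.68 and 9.07 RPKM in the libraries labelled hPRM1, both with 0 in the other 6. The proteases legumain (LGMN) and cathepsin L (CTSL) fell by 5.25 (SE 0.51) and 5.07 (SE 0.35) on the log2 scale, and both were also called lower under the other 2 scalings. CSTB and CTSH were called lower too, but changed sign after the median of ratios.

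Of the other lysosomal proteins beside CD68, 1 of 8 tested was called higher and 3 lower with the libraries as deposited, where 12.9% and 62.5% of all genes were. Under each of the other 2 scalings 5 were called higher and 0 lower. PSAP, the precursor of the saposins, rose from between 209 and 295 RPKM to between 924 and 1305 RPKM (log2 difference 2.23, SE 0.21). SCARB2 and LIPA fell by 2.13 (SE 0.35) and 1.91 (SE 0.24) on the log2 scale, and NPC1 by 1.28 (SE 0.34). None of these 3 was called under the other 2 scalings, and NPC1 changed sign.

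In the hPRM2 libraries 41 of the 123 related genes passed the filter and none was called by limma, beside the 2.74% of all genes. Of the 41, 9 had an unadjusted p under 0.05, and the per-gene test of the study's methods called none. The PYHIN and MS4A lists had no gene past the filter, and their summed levels reached 0.892 and 0.191 RPKM at most. The median log2 difference of the 41 was −0.62, against −0.72 over all genes tested.

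Markers of other blood cells were present in the same libraries as the monocyte genes. In those labelled hPRM1 all 8 erythroid, 8 neutrophil, 6 T lymphocyte, 6 B lymphocyte, 6 NK cell and 6 platelet markers were above 0. The summed erythroid level was 2.06e+06 to 2.27e+06 RPKM, led by HBB, the beta globin gene, at 765727 to 892449 RPKM. The neutrophil markers summed to 2983 to 3505 RPKM, more than the 10 monocyte genes. The lists hold different genes scaled by length, so their sums do not rank the cell types by amount of RNA. NK cell markers summed to 423 to 685, platelet markers to 319.5 to 564, T lymphocyte markers to 232 to 381 and B lymphocyte markers to 41.8 to 49.5 RPKM. In the empty vector and hPRM2 libraries the neutrophil, T, B and NK cell lists each stayed at or below 7.14 RPKM, and T lymphocyte markers were at 0 in all 3 empty vector libraries. LYZ and MNDA are also neutrophil genes, and the part of neutrophil RNA in their level was not tested. Nor was the part of monocyte RNA in the neutrophil sum.

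Of 8 markers of tissue macrophages, 7, 5 and 6 were above 0 in the 3 libraries labelled hPRM1, with a summed level of 12.1 to 23.5 RPKM, and TREM2 was at 0 in all of them. The 2 that passed the filter were MARCO and C1QA. MARCO, a scavenger receptor, had 16.7, 12.5 and 7.42 RPKM, near the levels of CD163, CD68 and MS4A7. C1QA, a chain of complement C1q made by resident macrophages, had 1.88, 7.85 and 2.11 RPKM, below those 3 genes in the same libraries.

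**Figure D3:**
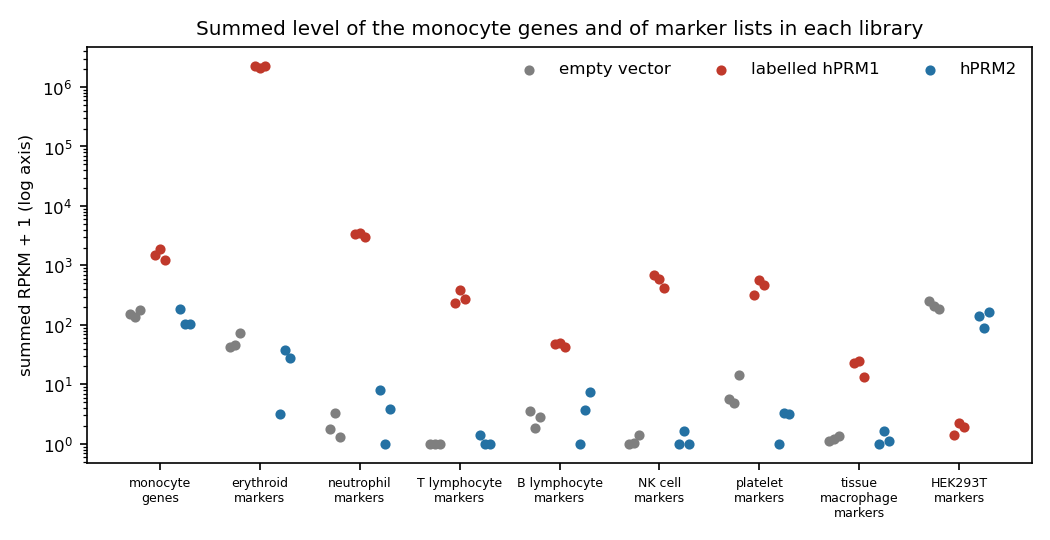
Summed RPKM + 1, on a log axis, of the 10 monocyte genes and of 8 lists of markers in each library. Every blood cell list is highest in the 3 libraries labelled hPRM1, with the erythroid list above 2.06e+06 RPKM, and the HEK293T list is at most 1.26 RPKM there.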

How the data were processed

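The deposited table held RPKM values for 57338 genes in 9 libraries labelled HEK293T, which the authors made from QuantSeq 3′ mRNA reads by running FastQC, cutadapt, STAR and Salmon in nf-core/rnaseq (the submitters' notes name hg38, and versions are not given in the sources used here). Per the methods, mitochondrial genes were removed and each gene's reads were divided by the library's total reads and by gene length in kilobases. Dividing by length is unusual for 3′-end reads, of which a transcript gives about as many whatever its length, and lowers the value of long genes. Values are shares of a library's total, so very abundant transcripts lower all others.

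Symbols and positions came from GENCODE 29 (GRCh38), and 98.6% of identifiers had a symbol. Depth was estimated from the steps between low RPKM values, after 250 bases were subtracted from transcript lengths, so the depths and read numbers are estimates. The limit that a 0 leaves, 3 reads, was 0.278 to 0.378 CPM in the empty vector libraries, 0.512 to 0.713 in those labelled hPRM1 and 1.13 to 2.36 in the hPRM2 libraries. They cover counting error only.

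Each comparison with the empty vector was fitted with limma 3.58.1 (R 4.3.3, trend and robust options) on log2(RPKM + 1), a scale that understates the change of low genes. Genes at 1 RPKM or more in 3 of 6 libraries were tested, p-values were adjusted by Benjamini-Hochberg over all of them, and a call needed an adjusted p of at most 0.05 and 2-fold. The code was tested on simulated data. Both comparisons share the empty vector libraries. The members and all lists were chosen with earlier results of these data known. All 10 members are named, with up to 4 genes per related list, those with the largest difference among the called (some are not reported here), and relatives listed at 0 in all libraries. SPI1, KLF4, GRB2, CSF1, IL34, LBP and a few others were added after their values were seen. Alternatives were other pseudocounts, filters and scalings, all 9 libraries in 1 fit, a replicate block, the per-gene test on RPKM of the study's methods, no fold threshold and leaving out each library in turn.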

Additional observations from a re-analysis of the deposited data

How the results depend on the processing

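The number of monocyte genes called higher in the libraries labelled hPRM1 was 8 to 10 over the alternatives run and 9 without any 1 library, which the choice of the list fixes in advance and is no sign of stability. For related genes called higher (44), the count was 25 with a minimum of 10 RPKM, 67 after the median of ratios and 27 with the per-gene test of the study's methods, and 44 to 46 without 1 library. For those called lower (14), it was 9, 7 and 8 in the same order, 8 after quantile normalization, and 13 to 16 without 1 library. In the hPRM2 comparison no related gene was called, but 6 were with all 9 libraries in 1 fit and 6 without hPRM2 replicate 1 (range 0 to 6 without 1 library), all lower. FBLN1, KLF4, SHC1 and GRB2 were called in both; the cause was not tested. CST3 in hPRM2 changed sign to 0.25 after the median of ratios and to 0.051 without hPRM2 replicate 3 (range −0.71 to 0.051 without 1 library), and was called under none of these. Without 1 library VCAN in hPRM2 ran from −2.14 without replicate 3 to −0.66 without replicate 1. Of 167 values of single members under the alternatives, 163 kept their direction and side of the threshold. That count pools both comparisons. The choice of the list fixes the part from the libraries labelled hPRM1 in advance, so the count is no sign of stability either.

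Replicate numbers are shared between the groups, but same-numbered libraries did not deviate together (r from −0.081 to 0.093 over genes), so they share only a number. With the number as a replicate block 9 monocyte genes and 45 and 14 related genes were called in the libraries labelled hPRM1 and 0 of each in the hPRM2 libraries. Limits include the doubt over what the libraries labelled hPRM1 are, 3 libraries a group, shallow hPRM2 libraries and the length scaling of 3′-end reads.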
